A study of Mus musculus with 48 samples.

Results

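Retinoic acid is both made and destroyed by the cells that respond to it, and 10 mouse genes of that system were followed here through the differentiation of embryonic stem cells (ESCs) towards gonadal somatic cell-like cells and through gonadal somatic cells of 4 ages. The genes were named by symbol, with earlier results of these data known. They were 3 nuclear receptors (Rara, Rarb, Rarg), 2 cytochrome P450 enzymes that oxidise retinoic acid (Cyp26a1, Cyp26b1), the retinaldehyde reductase Dhrs3, the membrane receptor Stra6, the binding proteins Crabp1 and Crabp2, and the synthetic enzyme Aldh1a2. All 10 had a row among the 22173 genes of the count table and in the single-cell table, and 9 had a row among the 13682 genes of the FPKM table (fragments scaled by exon length and library depth), which did not list Crabp1.

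All material was from C57BL/6 mice. Female ESCs grown in 2i and LIF were moved to a differentiation medium without them, and were left untreated (Con) or were given vitamin C (Vc), AM580 (a synthetic agonist selective for RARA) or both together (V580), and were sequenced at 24 h and 48 h with 2 libraries per group. V580 cultures were also sequenced on day 4, day 6, day 8 and day 10 (V580_D4 to V580_D10) beside gonadal cells separated from E12.5 female gonads (E12.5_GC), with 3 libraries per group. A further V580_D6 culture gave 1 droplet single-cell sample. Gonadal somatic cells (GSCs) of E12.5, E13.5 and E16.5 female gonads and of ovaries at 6 weeks after birth (P6w) were sequenced with 2 libraries per age. The embryonic GSCs were the fraction that magnetic removal of SSEA1-positive germ cells left behind, so they hold the somatic types of the gonad together and not 1 lineage.

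Retinol enters cells with the help of STRA6, is oxidised to retinaldehyde and then, by ALDH1A2 and its relatives, to retinoic acid. Retinoic acid binds RAR proteins paired with RXR proteins on DNA, and CYP26 enzymes remove it. In the fetal gonad the balance of synthesis and CYP26 activity sets how much retinoic acid reaches germ cells, and STRA8 in germ cells is its best-known target there. Rarb, Cyp26a1, Dhrs3, Stra6 and Crabp2 are textbook targets of the receptors, so several genes of this system are also read-outs of it.

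Rarb and Cyp26a1 are printed first because, among the 9 genes with a promoter entry in RefSeq (GRCm38.p6), these were the 2 whose window of 300 bases around the transcription start held a retinoic acid response repeat. The search was for a pair of half-sites in the same direction (AGGTCA or the form AGTTCA, and likewise GGGTCA or the form GGTTCA), separated by 1, 2 or 5 bases, on either strand. A pair separated by 5 bases was in 0.0974% of all 32851 windows, and any of the 3 spacings was in 0.588%. The Rarb window lies at chr14:16575427-16575726 on the minus strand and the Cyp26a1 window at chr19:37697558-37697857 on the plus strand. Each runs 5′ to 3′ on the gene's own strand, with the repeat in capitals.
Rarb: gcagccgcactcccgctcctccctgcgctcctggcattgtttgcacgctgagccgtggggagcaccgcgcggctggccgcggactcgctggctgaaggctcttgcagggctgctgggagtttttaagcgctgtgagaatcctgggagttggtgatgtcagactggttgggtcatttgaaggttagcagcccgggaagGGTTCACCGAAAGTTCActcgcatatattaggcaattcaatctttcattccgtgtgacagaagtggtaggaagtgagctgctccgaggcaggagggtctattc
Cyp26a1: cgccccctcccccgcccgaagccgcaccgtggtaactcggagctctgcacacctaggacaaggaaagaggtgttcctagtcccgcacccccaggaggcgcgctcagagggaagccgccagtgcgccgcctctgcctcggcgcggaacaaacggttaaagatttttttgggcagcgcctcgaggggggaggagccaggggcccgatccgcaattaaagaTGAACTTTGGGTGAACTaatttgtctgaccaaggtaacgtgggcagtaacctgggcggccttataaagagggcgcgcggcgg
The Rarb repeat spanned bases -53 to -37 from the start and read in the direction of the gene. The Cyp26a1 repeat spanned bases -32 to -16 and read on the opposite strand. No window was listed for Crabp2. A match describes letters and not binding.

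The count libraries held 12694769 to 22259044 assigned reads. The FPKM libraries corresponded to 16.4 M to 28.3 M fragments (M, 1000000), read back from the step size of the values, and the single-cell sample held 162844912 unique molecular identifiers (UMIs) in 15315 cells. Nothing in the labels says that libraries of a group came from separate animals or cultures, so p-values measure only the spread between these samples. In these bulk samples fewer cells of a type and less RNA per cell cannot be told apart. At E12.5 both GSC libraries held 97 to 103 reads of the Y-linked Ddx3y (at most 4 in the other libraries) and 159 to 231 reads of Amh, a hormone of Sertoli cells (8 to 15 at E13.5), although the labels call the gonads female. This held for both E12.5 libraries, so no E12.5 value of the count table can be given without them. The FPKM values cover none of the 4 Y-linked genes looked at, so Y-linked reads could not be looked for in E12.5_GC.

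Which genes of this system answered the agonist in ESCs, and whether vitamin C altered that, was asked first. Cyp26a1 had the largest difference of the members on the log2(FPKM + 1) scale at both times. At 24 h it stood at 4.59 and 4.93 FPKM in Con, 3.12 and 3.29 in Vc, 22.4 and 22.4 in AM580, and 22.45 and 21.5 in V580. At 48 h it stood at 1.05 and 0.670 in Con, 0.314 and 0.584 in Vc, 87.4 and 93.9 in AM580, and 118.5 and 123 in V580. Every library with AM580 was above every library without it, and the untreated level was itself lower at 48 h. On the log2(FPKM + 1) scale the AM580 difference was 2.02 ± 0.09 (SE, n = 2 per group) at 24 h (limma, adjusted p = 1.8e-09) and 5.63 ± 0.09 at 48 h (adjusted p = 2.1e-15). Counted in recovered fragments, which adding 1 to the value does not dampen, the differences were 4.73-fold and 107-fold. At 24 h that was less than for Dhrs3 (6.40-fold), Cyp26b1 (7.75-fold), Stra6 (8.69-fold) and Rarb (a pooled ratio of 33.7). Among 10644 genes tested, Cyp26a1 ranked first by rise at 48 h both with AM580 and with V580, and second at 24 h with AM580.

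The Cyp26b1 enzyme, by contrast, stayed under 1 FPKM in all 16 libraries and was not in the limma test. Its values at 48 h were 0.0564 and 0.0710 in Con, 0.0520 and 0.0323 in Vc, 0.913 and 0.858 in AM580, and 0.486 and 0.501 in V580. These came from 3 to 13 fragments in the libraries without AM580 at either time, and 46 to 96 with it. The groups with and without the agonist did not overlap. By edgeR on the fragments it was 7.75-fold higher with AM580 at 24 h (adjusted p = 1.3e-06) and 13.8-fold higher at 48 h (adjusted p = 7.2e-09).

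The receptors differed. Rarb, which is listed among the classical targets, was near 0 without the agonist. At 48 h it stood at 0.0191 and 0.0812 FPKM in Con (2 and 9 fragments), 0.0528 and 0.109 in Vc, 2.18 and 2.225 in AM580, and 2.01 and 1.76 in V580. The groups were far apart, and Rarb rose by 1.61 on the log2 scale with AM580 (adjusted p = 1.4e-10), or 42.8-fold in fragments. At 24 h it was at 0.760 and 0.913 FPKM with AM580 against 0.0193 and 0.0304 in Con. That difference of 0.84 missed the 2-fold threshold on the dampened scale (adjusted p = 1.2e-06), while the ratio of pooled fragments was 33.7 (95% counting interval 14.2 to 105).

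Rarg had the highest FPKM of the receptors in ESCs. It stood at 104.6 and 106 FPKM in Con at 24 h and at 121 and 122 with AM580. By 48 h it was at 56.3 and 58.2 in Con, 47.7 and 50.7 in Vc, 32.3 and 34.45 in AM580, and 33.9 and 31.02 in V580. The agonist groups were thus above the untreated ones at 24 h and below them at 48 h. The differences of 0.20 (adjusted p = 0.0089) and -0.76 (adjusted p = 5.2e-09) both stayed under 2-fold. Rara, the receptor AM580 targets, was at 15.45 and 14.5 FPKM in Con and 21.2 and 20.1 in AM580 at 24 h, a difference of 0.44 (adjusted p = 0.00011). At 48 h it was at 10.1 and 10.99 in Con and 14.0 and 15.2 in AM580, a difference of 0.43 (adjusted p = 2.1e-05). The groups did not overlap at either time, and neither difference reached 2-fold.

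Dhrs3, which returns retinaldehyde to retinol, rose as well. At 48 h it stood at 1.01 and 1.01 FPKM in Con, 0.950 and 1.24 in Vc, 15.9 and 15.85 in AM580, and 12.503 and 11.8 in V580. At 24 h it had stood at 0.539 and 0.729 in Con and 4.05 and 4.03 in AM580. It rose by 1.63 on the log2 scale at 24 h (adjusted p = 2.5e-09) and by 3.07 at 48 h (adjusted p = 1.6e-13) with AM580. Stra6 was at 0.449 and 0.513 FPKM in Con at 48 h and at 4.41 and 4.23 in AM580, and rose by 1.84 (adjusted p = 7.7e-11). Crabp2, which carries retinoic acid to the nucleus, differed in its timing. It stood at 4.96 and 4.92 FPKM in Con and 5.06 and 4.14 in AM580 at 24 h, where the groups overlapped. At 48 h it stood at 12.4 and 12.04 in Con, 8.48 and 8.18 in Vc, 31.05 and 31.9 in AM580, and 15.8 and 15.5 in V580. The AM580 libraries were highest, and the gene rose by 1.30 (adjusted p = 3e-08). Aldh1a2 remained between 0.491 and 1.58 FPKM in all 16 libraries, and its AM580 difference at 48 h was 0.50 (adjusted p = 0.00078).

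Of the 8 genes tested, 2 rose with AM580 at 24 h (Cyp26a1, Dhrs3) and 5 at 48 h (with Rarb, Stra6 and Crabp2). Of all genes, 0.404% and 3.23% were called in those comparisons, and 0.366% and 2.33% as higher. None of the 8 passed in the other direction. The median difference of the 8 at 48 h was 1.45, beside -0.03 over all genes. With V580, 2 genes rose at 24 h and 4 at 48 h (all genes 0.695% and 3.18%, with 0.47% and 1.84% higher), in comparisons that share the Con libraries with AM580. Cyp26a1 was 143-fold higher in fragments and Dhrs3 12.2-fold. In recovered fragments the call at 24 h took in Rarb, Stra6 and Cyp26b1 as well, giving 5 of 9 genes with either treatment (all genes 1.53% with AM580, 3.06% with V580).

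Vitamin C alone moved no gene of the 8 past the threshold at either time by limma (all genes 0.0846% at 24 h, 0.047% at 48 h), nor any of 9 by edgeR on fragments. At an unadjusted p under 0.05 there were 3 genes at each time (all genes 2875 at 24 h and 2884 at 48 h, of 10644). The difference for Crabp2 was -0.42 at 24 h (adjusted p = 0.0088) and -0.50 at 48 h (adjusted p = 0.003), with the Vc libraries below the Con libraries each time. That for Cyp26a1 was -0.45 (adjusted p = 0.0046) and -0.36 (adjusted p = 0.018). Set against AM580 alone, V580 also changed none of the 8 (all genes 0.0658% and 0.263%). At an unadjusted p under 0.05 there were 3 at 24 h and 4 at 48 h (all genes 3001 and 3453 of 10644). Crabp2 came nearest, at 15.8 and 15.5 FPKM in V580 against 31.05 and 31.9 in AM580, a difference of -0.96 ± 0.09 (adjusted p = 6.1e-06). By edgeR on fragments the difference was -1.0025, and it was the 1 call of 9 (all genes 1.36%).

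The test of whether vitamin C altered the AM580 difference itself called none of the 8 genes at either time (all genes 0% and 0.122%). At 24 h 2 genes had an unadjusted p under 0.05, and at 48 h 5 genes did (all genes 472 and 1602 of 10644). For Cyp26a1 at 48 h the interaction was 0.77 ± 0.13 (adjusted p = 0.0029), under the 2-fold threshold. By edgeR on fragments it was 1.38 (adjusted p = 0.014) and was the 1 call among 9 genes (all genes 0.335%), with the Vc level the lowest and the V580 level the highest. It rests on few fragments of Cyp26a1 without AM580 at 48 h, 37 and 25 in Con and 12 and 18 in Vc. The AM580 difference itself grew from 24 h to 48 h for 4 of 8 genes (all genes 1.9%), by 3.61 for Cyp26a1, 1.44 for Dhrs3, 1.39 for Crabp2 and 1.17 for Stra6, the last on this scale only. Untreated ESCs changed with time too. Cyp26a1 fell by 1.64 from Con at 24 h to Con at 48 h (adjusted p = 5.8e-10), and Crabp2 rose by 1.15 (adjusted p = 5e-08), 2 of 8 genes against 7.72% of all genes.

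**Figure D1:**
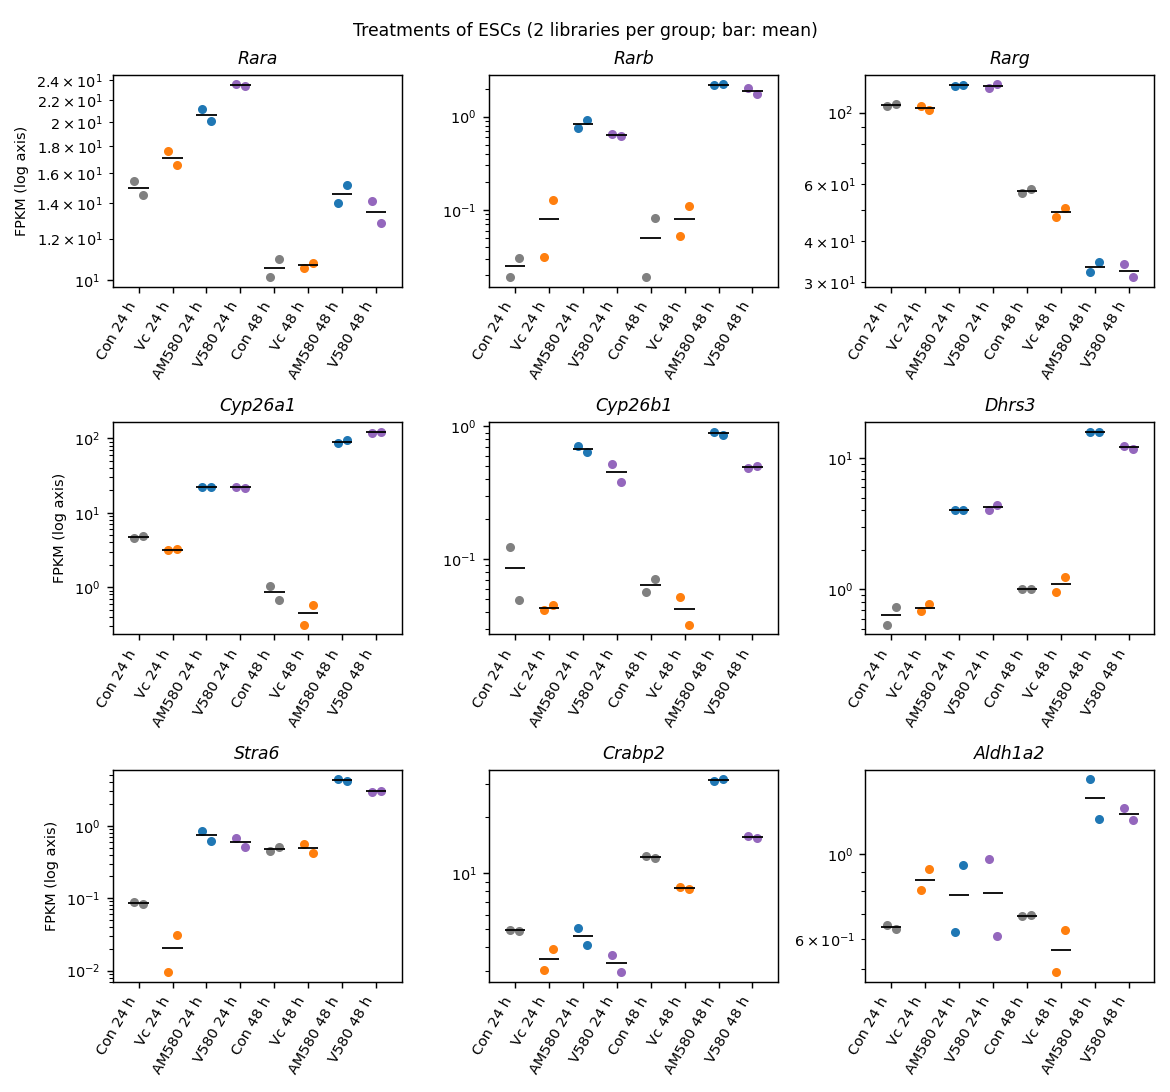
FPKM (log axis) of the 9 genes in Con, Vc, AM580 and V580 cultures at 24 h and 48 h, with 1 point per library (n = 2 per group) and a bar at the mean. Cyp26a1, Dhrs3, Rarb, Stra6 and Cyp26b1 show the libraries with AM580 above those without it at both times, as does Rara by a smaller difference. For Rarg they lie above at 24 h and below at 48 h. For Crabp2 and Aldh1a2 they lie above at 48 h only. How many of all genes show the libraries apart in this way was not counted.

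Among 19 further genes of retinoid transport, synthesis, RXR partners and coregulators, 13 were tested in ESCs and 2 rose with AM580 at both times. Among them was Nrip1, a receptor corepressor (1.12 at 24 h and 1.45 at 48 h). Of all genes, 0.366% and 2.33% were called higher. None of the 13 was called lower, and the median of the 13 at 48 h was 0.10. Among 13 genes known to be induced by retinoic acid, 4 were tested. None was called at 24 h, and 3 rose at 48 h, among them the homeobox genes Meis1 (2.08) and Meis2 (2.01), with a median of 1.67. With V580 at 48 h, 2 and 3 genes of these lists rose (all genes 1.84%), among them Nrip1 (1.77), Meis1 (2.14) and Meis2 (1.60). Alongside, summed marker levels of other cell types moved. At 48 h extraembryonic endoderm markers (6 of 9 in the table) were 3.36 to 3.92 FPKM in Con, 15.6 to 15.98 with AM580 and 7.32 to 8.69 with V580. Sertoli markers (4 of 6 in the table, 1 of which was tested) were 6.92 to 6.98 in Con, 56.3 to 61.9 with AM580 and 40.5 to 44.97 with V580. At 24 h they were 22.7 to 24.5, 85.5 to 88.4 and 69.1 to 70.7. The genes not tested were under 1 FPKM in all but at most 1 library. These sums thus rest mainly on 1 gene and do not describe the set. Mesonephros markers (4 of 5) were 0.684 to 0.940 in Con at 48 h and 2.57 to 2.74 with AM580. Some sums went the other way. Supporting cell markers at 48 h were 16.09 to 16.10 FPKM in Con, 12.2 to 12.6 with AM580 and 6.61 to 7.61 with V580. The part of these sums in the values of the members and lists was not tested.

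From 48 h to day 4 of V580 culture, 6 genes rose and 1 fell. Nothing in the labels says whether the 48 h and day 4 libraries were made together, so time and batch cannot be told apart. No untreated culture was sequenced after 48 h, so time and continued AM580 cannot be told apart either. Cyp26b1 went from 0.486 and 0.501 FPKM to 66.75, 72.9 and 69.4, and rose by 5.56 ± 0.13 (limma, adjusted p = 1.3e-20), the 3rd largest rise among 11921 genes. Crabp2 went from 15.8 and 15.5 FPKM to 147.7, 153 and 130.5. Aldh1a2 went from 1.325 and 1.23 to 10.5, 10.4 and 10.6. In each case all day 4 libraries lay above both 48 h libraries. The rises were 3.11 for Crabp2 (adjusted p = 6.2e-15) and 2.34 for Aldh1a2 (adjusted p = 3.4e-17). Stra6 (1.73), Dhrs3 (1.68) and Rarb (1.49) also rose, and Rarg fell by 1.059, 7 of 9 genes against 15.6% of all genes. Rarg missed the 2-fold threshold without V580_48h replicate 1 and after quantile normalization (-0.98). Pluripotency markers summed to 213 to 240 FPKM on day 4, against 2228 to 4374 in the 24 h and 48 h groups. Mesothelial markers summed to 194 to 224 FPKM on day 4 (27.25 to 28.35 in V580_48h), supporting cell markers to 68.3 to 75.1 (6.61 to 7.62), and extraembryonic endoderm markers to 42.7 to 51.6 (7.32 to 8.69). Sertoli markers, whose 48 h sum rests mainly on 1 gene, were at 10.4 to 10.9 on day 4. Endothelial markers were at 1.53 to 1.56, and both were below their 48 h sums. The part of these marker differences was not tested.

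Aldh1a2 and Cyp26a1 then moved in opposite directions. Between day 4 and day 6 Aldh1a2 went from 10.5, 10.4 and 10.6 FPKM to 64.5, 75.4 and 69.96, and rose by 2.62 ± 0.06 (SE, n = 3 per group; limma, adjusted p = 6.3e-13). Over the same days Cyp26a1 went from 155, 170.6 and 168 to 50.6, 44.7 and 45.5, and fell by 1.79 (adjusted p = 2.1e-11). Crabp2 went to 20.9, 24.15 and 23.1, and fell by 2.61 (adjusted p = 5.4e-09). None of the day 4 and day 6 values overlapped for these 3 genes, which were the 3 of 9 called (all genes 5.08%). Cyp26b1 went to 36.3, 32.85 and 34.5 FPKM, a difference of -0.99 that fell just short of 2-fold. Endothelial markers summed to 20.1 to 21.2 FPKM on day 6 (1.53 to 1.56 on day 4), mesothelial markers to 318 to 329 (194 to 224) and pluripotency markers to 12.3 to 15.3 (213 to 240), and their part in these values was not tested.

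Later days brought fewer calls. From day 6 to day 8 Dhrs3 went from 32.25, 28.6 and 29.8 FPKM to 83.6, 73.6 and 73.1, with no overlap, and rose by 1.32 (adjusted p = 7.3e-06). Crabp2 went to 13.3, 10.0 and 9.04 FPKM, and fell by 1.02 (adjusted p = 0.00011), a call that any of 3 left-out libraries (V580_D6 replicate 2, V580_D8 replicate 2 or 3) took under 2-fold (-0.92 to -0.98). These were 2 of 9 genes against 2.55% of all genes. From day 8 to day 10 limma called 0 of 9 (all genes 1.29%) and edgeR on fragments called 0. By limma 6 had an unadjusted p under 0.05 (all genes 5055 of 11512). Aldh1a2 went from 46.4, 47.2 and 46.9 FPKM to 29.6, 27.6 and 26.7, a difference of -0.72 (adjusted p = 1.4e-06). Stra6 went from 24.4, 20.03 and 20.4 to 31.8, 29.5 and 32.6, a difference of 0.52. Interstitial markers summed to 74 to 86 FPKM on day 4, 182 to 191 on day 6, 539 to 683 on day 8 and 1415 to 1738 on day 10, and their part in these values was not tested.

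**Figure D2:**
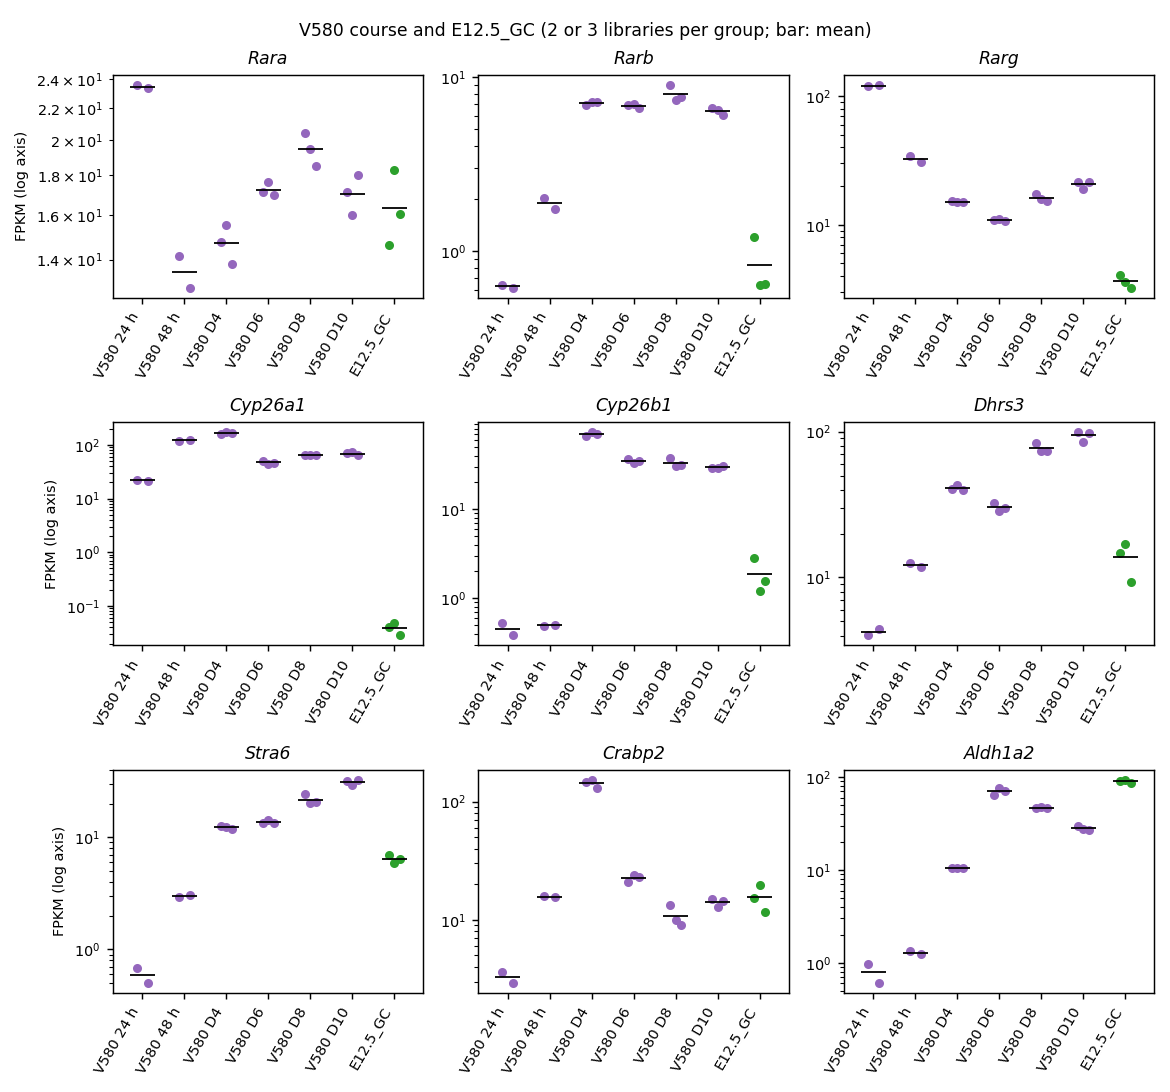
FPKM (log axis) of the 9 genes in V580 cultures at 24 h, 48 h, day 4, day 6, day 8 and day 10 (purple) and in E12.5_GC (green), with 1 point per library and a bar at the mean. Aldh1a2 peaks on day 6 among the culture groups and stays under E12.5_GC, whereas Cyp26a1 peaks on day 4 and lies above E12.5_GC throughout.

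How near V580 cells came to gonadal cells was asked by setting each day against E12.5_GC, 4 comparisons that share the same 3 gonadal libraries. The methods describe a change of medium with the compounds every other day, and no untreated culture was sequenced from day 4 to day 10. Exposure to AM580 and the difference between culture and gonad thus cannot be told apart for any gene here. Cyp26a1 set the cultures apart most. It was at 0.0406, 0.0481 and 0.0288 FPKM in E12.5_GC, from 2, 2 and 1 fragments. The ratios of pooled fragments to E12.5_GC were 4143 (95% counting interval 1775 to 12760) on day 4, 1178 (504 to 3629) on day 6, 1636 (701 to 5040) on day 8 and 1735 (743 to 5344) on day 10. On day 4 its difference was the largest positive one of 11512 genes. The summed extraembryonic endoderm markers (6 of 9 in the table) were 42.7 to 51.6 FPKM on day 4, 52.3 to 60.1 on day 6 and 44.1 to 48.3 on day 10, against 23.1 to 31.7 in E12.5_GC, and their part in this difference was not tested. Cyp26b1 was at 2.81, 1.21 and 1.555 FPKM in E12.5_GC and at 28.7 or more in all culture libraries from day 4, with differences of 4.67, 3.67, 3.61 and 3.45 from day 4 to day 10 (largest adjusted p = 2.2e-11).

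The synthetic enzyme lay the other way. Aldh1a2 was at 89.6, 93.4 and 86.85 FPKM in E12.5_GC, above all 12 culture libraries. Its difference was -2.98 on day 4, -0.36 on day 6 (adjusted p = 0.00013), -0.93 on day 8 (adjusted p = 6.5e-09) and -1.65 on day 10, and it was called on day 4 and day 10. The nearest culture library, on day 6, was at 75.4 FPKM. The receptors Rarb and Rarg were higher on every day. Rarb was at 1.22, 0.640 and 0.650 FPKM in E12.5_GC and between 6.07 and 8.99 in culture, with differences of 2.02 to 2.31 (largest adjusted p = 1.7e-10). Rarg was at 4.05, 3.59 and 3.25 FPKM in E12.5_GC and between 10.7 and 21.7 in culture, with differences of 1.37 to 2.23 (largest adjusted p = 3.8e-10). Neither gene's culture values overlapped the gonadal ones.

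Dhrs3 was at 14.8, 17.0 and 9.37 FPKM in E12.5_GC and between 28.6 and 98.9 in culture, with differences of 1.55, 1.12, 2.43 and 2.73. Its call on day 6 was lost without E12.5_GC replicate 3, the lowest gonadal library (0.88). Stra6 was at 6.94, 5.91 and 6.38 FPKM in E12.5_GC and was called from day 8 (1.61, then 2.12 on day 10). Crabp2 was called on day 4 only (3.15), and its values of 15.2, 19.8 and 11.7 FPKM in E12.5_GC overlapped those of day 8 and day 10. Rara was at 14.6, 18.3 and 16.03 FPKM in E12.5_GC and between 13.8 and 20.45 in culture, with no call on any day.

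Of 9 genes, 7 were called on day 4, 5 on day 6, 6 on day 8 and 7 on day 10, while 20.4%, 15.2%, 13% and 16.4% of all genes were. Of 14 further pathway genes tested on day 6, 2 were higher than in E12.5_GC (among them Rdh10, 1.85) and 3 lower (all genes 7.06% and 8.11%), among them the synthetic enzymes Aldh1a3 (-1.72) and Aldh1a1 (-1.60). RDH10 makes retinaldehyde, the step before ALDH1A2. Of 6 genes induced by retinoic acid, 4 were higher on day 6 and none lower, with a median of 1.29 beside 0.03 over all genes. Supporting cell markers summed to 923 to 1170 FPKM in E12.5_GC and 127 to 131 on day 6. Erythroid markers summed to 1038 to 4435 FPKM in E12.5_GC and under 1 in the cultures, and mesothelial markers to 134 to 148 in E12.5_GC and 318 to 329 on day 6. Muscle markers summed to 19.4 to 29.1 in E12.5_GC and 126 to 136 on day 6, and endothelial markers to 48.3 to 76.6 and 20.1 to 21.2. The part of these marker differences in the results was not tested.

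In GSCs the question was how the system changed with age. Values here are read counts followed by CPM (counts scaled to library size) after TMM scaling, and they do not compare levels between genes. Cyp26b1, which keeps retinoic acid from germ cells in the fetal testis, had 273 and 302 reads in the E12.5 libraries. E13.5 gave 41 and 25, E16.5 gave 45 and 23, and P6w gave 9 and 16. In CPM these were 12.65 and 14.9, then 2.08 and 1.43, then 1.95 and 1.41, then 0.735 and 1.33. Both E12.5 libraries were above all 6 others. Cyp26b1 fell by 2.96 ± 0.32 on the log2 scale from E12.5 to E13.5 (SE, n = 2 per stage; edgeR, adjusted p = 8.1e-06) and by 3.73 ± 0.36 from E12.5 to P6w (adjusted p = 4.6e-07). The summed Sertoli markers ran from 152 to 158 CPM in the E12.5 libraries and 43.9 to 45.7 in the next stage. They were 159 to 164 CPM in E16.5 cells and 101 to 189 in the adult. Single genes of the sum differed. Cst9 had 1195 to 1273 reads at E12.5, 60 to 104 at E13.5, 57 to 101 at E16.5 and 6 in each P6w library. Sox9 instead had 714 to 753 reads at E12.5 and 2105 to 2874 at E16.5. Amh was highest at P6w, with 817 to 1923 reads. With the Y-linked reads at E12.5, the part of these genes in the fall was not tested.

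Cyp26a1 was barely detected before birth, with 1 read in each E12.5 library, 0 in each E13.5 library, and 9 and 10 reads in E16.5 cells. At P6w the libraries had 5 and 67 reads (0.409 and 5.58 CPM) and thus disagreed with each other. P6w stood at a ratio of 62.1 to E12.5 (95% counting interval 16.6 to 522; edgeR, adjusted p = 0.0012), but without P6w replicate 2 the difference was 2.93 on the log2 scale and was no longer called. From E13.5 to E16.5 it was at least 3.10-fold higher, taking 3 reads in each E13.5 library as the floor (adjusted p = 0.023). Leaving out either E13.5 library ended that call.

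Aldh1a2 differed mainly between the embryo and the adult. E12.5 gave 2048 and 1953 reads, E13.5 1941 and 1963, E16.5 2043 and 1467, and P6w 223 and 237 (94.9 and 96.5, 98.6 and 112, 88.4 and 89.8, and 18.2 and 19.7 CPM). The P6w libraries were below all 6 embryonic ones, and Aldh1a2 fell by 2.33 ± 0.13 from E12.5 to P6w (adjusted p = 1.3e-09). No embryonic comparison of it was called. Dhrs3 was the reverse in its timing. E12.5 stood at 202 and 199 CPM, E13.5 at 330.5 and 325, E16.5 at 271 and 256, and P6w at 297 and 308, so that E12.5 was lowest. It rose by 0.71 to E13.5 (adjusted p = 0.00011), 0.39 to E16.5 (adjusted p = 0.0098) and 0.59 to P6w (adjusted p = 0.00029), none of them 2-fold. The call at E16.5 was lost without either E12.5 library.

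Among the receptors, Rarb and Rarg changed in opposite directions. For Rarg, E12.5 gave 138 and 149 reads, E13.5 gave 91 and 92, E16.5 gave 160 and 154, and P6w gave 718 and 595, with P6w above the rest. It rose by 2.98 ± 0.20 from E12.5 to P6w (adjusted p = 8.9e-09). For Rarb these were 96 and 111, 42 and 48, 59 and 28, and 2 and 7 in the same order of stages. Its highest pair was at E12.5 and its lowest at P6w, with overlap between the middle stages. It fell by 3.72 ± 0.52 from E12.5 to P6w (adjusted p = 2.3e-05). Its differences of -1.03 to E13.5 (adjusted p = 0.036) and -1.20 to E16.5 (adjusted p = 0.021) were not called by DESeq2, and the first was lost without any 1 library of either stage. The second was lost without E12.5 replicate 1 or 2 or E16.5 replicate 2. Rara had 687 and 773 reads at E12.5 and 409 and 361 at P6w, or 31.8 and 38.2 against 33.4 and 30.1 CPM, which overlapped, and it was called in no stage comparison.

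The binding proteins parted after birth. Each E12.5 library had 205 reads of Crabp1, those of E13.5 had 409 and 446, those of E16.5 had 247 and 187, and those of P6w had none. It rose by 1.23 ± 0.20 to E13.5 (adjusted p = 0.00022), a call lost with a correction for gene length (0.39), and was at least 39.7-fold lower at P6w than at E12.5 with the floor of 3 reads in each P6w library. For Crabp2, E12.5 gave 586 and 601 reads, E13.5 gave 411 and 436, E16.5 gave 119 and 93, and P6w gave 941 and 921. In CPM it was at 27.15 and 29.7, 20.9 and 24.9, 5.15 and 5.69, and 76.9 and 76.7. E16.5 was thus lowest and P6w highest. Crabp2 fell by 2.39 ± 0.17 from E12.5 to E16.5 (adjusted p = 6.8e-08) and rose by 3.83 ± 0.17 from E16.5 to P6w (adjusted p = 8.9e-11). Stra6 was between 18.9 and 30.97 CPM in all 8 libraries and was called in no comparison.

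Set against E12.5, 4 of 10 genes were called in E13.5 cells, 4 in E16.5 cells and 8 in the adult, beside 45.9%, 37.6% and 52.9% of all genes. From E13.5 to E16.5 5 were called (all genes 54.1%) and from E16.5 to P6w 6 (all genes 56.1%). In the embryonic comparisons and from E16.5 to P6w the members' shares were near the background. Rarg was among those called from E13.5 to E16.5 (0.72, adjusted p = 0.01), a call lost with a term for the sequencing lane or without E13.5 replicate 1 or E16.5 replicate 2. Cyp26a1 from E16.5 to P6w changed direction when P6w replicate 2 was left out (2.59 against -0.27). The E12.5 and E13.5 libraries and E16.5 replicate 1 were on 1 lane and the others on another, so only E16.5 spanned both.

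**Figure D3:**
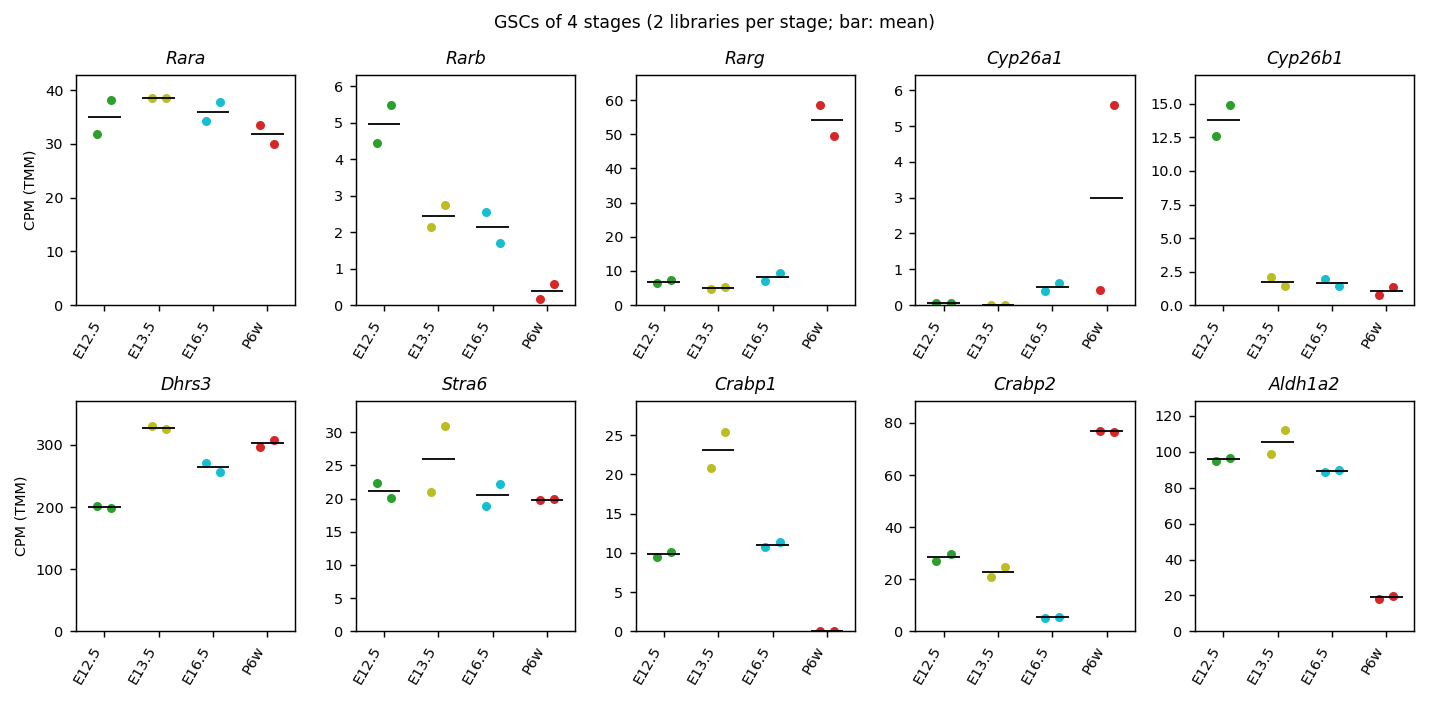
CPM after TMM scaling (linear axes from 0) of the 10 genes in GSCs of 4 stages, with 1 point per library (n = 2 per stage) and a bar at the mean. Cyp26b1 is highest at E12.5, Rarg and Crabp2 are highest at P6w, and Crabp1 and Aldh1a2 are lowest there, while the P6w points of Cyp26a1 lie far apart.

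Of 18 further pathway genes tested, 5 were higher and 7 lower at P6w than at E12.5, near the shares of all genes (25.4% and 27.5%). Lrat, which stores retinol as esters (5.08), and Aldh1a1 (2.53) were higher, while Rxrg (-3.08) and Rdh10 (-1.85) were lower. Of 11 genes induced by retinoic acid, none was higher and 8 were lower at P6w, with a median of -2.55 beside -0.04 over all genes. At E13.5 1 was higher and 6 were lower (all genes 23.8% and 22.1%), with a median of -1.0027 beside 0.03 over all genes. The 1 higher was Stra8 (3.29, then 4.07 at E16.5), which marks germ cells entering meiosis. The summed germ cell markers ran from 17.4 to 18.5 CPM in E12.5 cells, 49.2 to 49.9 in E13.5 cells, 91.98 to 113 in E16.5 cells and 24.7 to 25.8 in the adult, and their part in the Stra8 values was not tested. Adult granulosa markers summed to 36802 to 36964 CPM at P6w and at most 270 in the embryo. Liver markers summed to 164 to 169 CPM at E13.5, against 4.55 to 5.98 at E12.5, 2.63 to 4.76 at E16.5 and 126 to 138 at P6w. The P6w sum rests mainly on Apoa1 (1496 to 1601 reads), with 0 reads of Alb and 0 to 2 of Afp. At E13.5 Alb had 738 to 935 reads and Afp 899 to 991. Erythroid markers summed to 24862 to 27125 CPM at E13.5, 11506 to 12698 at E12.5 and 6578 to 10779 at E16.5. Mesothelial markers summed to 700.05 to 716 CPM in E12.5 cells and 108.5 to 124 in the adult, supporting cell markers to 2866 to 2880 and 1556 to 1641, and interstitial markers to 2976 to 3294 in E16.5 cells and at most 980 in the other stages. The part of these sums in the stage differences was not tested.

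In the V580_D6 single-cell sample, 15315 of 15412 barcodes passed the study's stated limits, with a median of 9281 UMIs and 3074 genes per cell. There was 1 sample, so values below are descriptions of it. Intervals are exact Poisson intervals at 95% and cover counting error only. Summed over all cells, Dhrs3 was at 146 CPM of UMIs (144 to 148), Cyp26a1 at 113 (111 to 115), Aldh1a2 at 67.7 (66.5 to 69.0), Cyp26b1 at 42.1 (41.1 to 43.1), and Rara, Rarb and Rarg at 36.0, 38.0 and 17.1. Clustering gave 11 groups. From their markers, cluster 2 was mesothelial-like (Upk1b, Lrrn4, Upk3b; 3499 cells), cluster 4 interstitial-like (Lum, Col1a1, Dcn among 6 markers; 1342 cells) and cluster 8 extraembryonic endoderm-like (Cubn, Apoa1, Ttr, Sox7; 940 cells), and 8 clusters stayed unnamed. No supporting or granulosa name could be given to any cluster from its markers. No doublet caller was run, so doublets may remain.

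Cyp26a1 and Aldh1a2 were highest in different clusters. Cyp26a1 was at 537 CPM (528 to 546) in the extraembryonic endoderm-like cluster 8, which held 12627 of its 18383 UMIs. It was higher still in the unnamed cluster 10, which is led by Triml2, Lama1 and Kit, at 749 (692 to 811) in 268 cells. In the unnamed cluster 7, led by Cited1 and Gpx2, it was at 292 (274 to 311). The remaining clusters were between 11.2 and 82.55, with the mesothelial-like cluster at 19.3 (18.0 to 20.6) and the interstitial-like cluster at 17.1 (15.3 to 19.0).

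Aldh1a2 ran the other way. It was at 113 CPM (109.7 to 116) in the mesothelial-like cluster and 121 (117.5 to 125) in cluster 3, which is led by histone genes and Mki67, and at 27.4 (25.2 to 29.8) in the interstitial-like cluster. In clusters 7 and 8 it was at 11.7 and 9.65. With each cell thinned to 2000 UMIs (11515 cells, 3800 shallower cells left out), 62.05% of cluster 8 cells and 3.26% of mesothelial-like cells had a Cyp26a1 UMI, and 1.81% and 17.2% had an Aldh1a2 UMI. Without thinning the Cyp26a1 shares were 97.7% and 18.9% and the Aldh1a2 shares 16.6% and 53.3%, at median depths of 22993 and 12233 UMIs. The shares of 3.26% and 1.81% are at a level that free RNA in droplets can give, and were not read as expression.

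Cyp26b1 was spread more evenly than Cyp26a1. It was highest in cluster 10 at 171 CPM (144 to 202), then in cluster 8 at 92.1 (88.2 to 96.0), cluster 11 at 84.2 (56.8 to 120.2) and cluster 6 at 81.1 (77.1 to 85.4). The interval of cluster 11 overlaps those of clusters 6 and 8, which lie apart from each other. It was at 27.6 (26.1 to 29.2) in the mesothelial-like cluster. Of 2858 cells with a Cyp26b1 UMI, 48.04% also had a Cyp26a1 UMI, compared with 25.9% of all cells, and 25.4% had an Aldh1a2 UMI, compared with 28.2% of all. Deeper cells have more UMIs of every gene, and these shares were not thinned.

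Dhrs3 was highest in the interstitial-like cluster at 284 CPM (277 to 292) and was at 173 (169 to 177) in the mesothelial-like cluster, 31.2 in cluster 7, 36.65 in cluster 8 and 37.6 in cluster 10. The 3 clusters highest in Cyp26a1 were thus the 3 lowest in Dhrs3. Rarb was at 61.0 (57.6 to 64.5) in the interstitial-like cluster and 16.499 (14.9 to 18.2) in cluster 8. Rarg was at 34.3 in cluster 6 and 3.49 in cluster 8. Crabp1 was at 1913 CPM (1772 to 2063) in cluster 11, a group of 28 cells led by Sst, Cartpt and Neurod4 in which every cell had a Crabp1 UMI, and at 60.7 (57.3 to 64.2) or less elsewhere. Crabp2 was at 362 in cluster 11 and 100.4 in cluster 6.

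**Figure D4:**
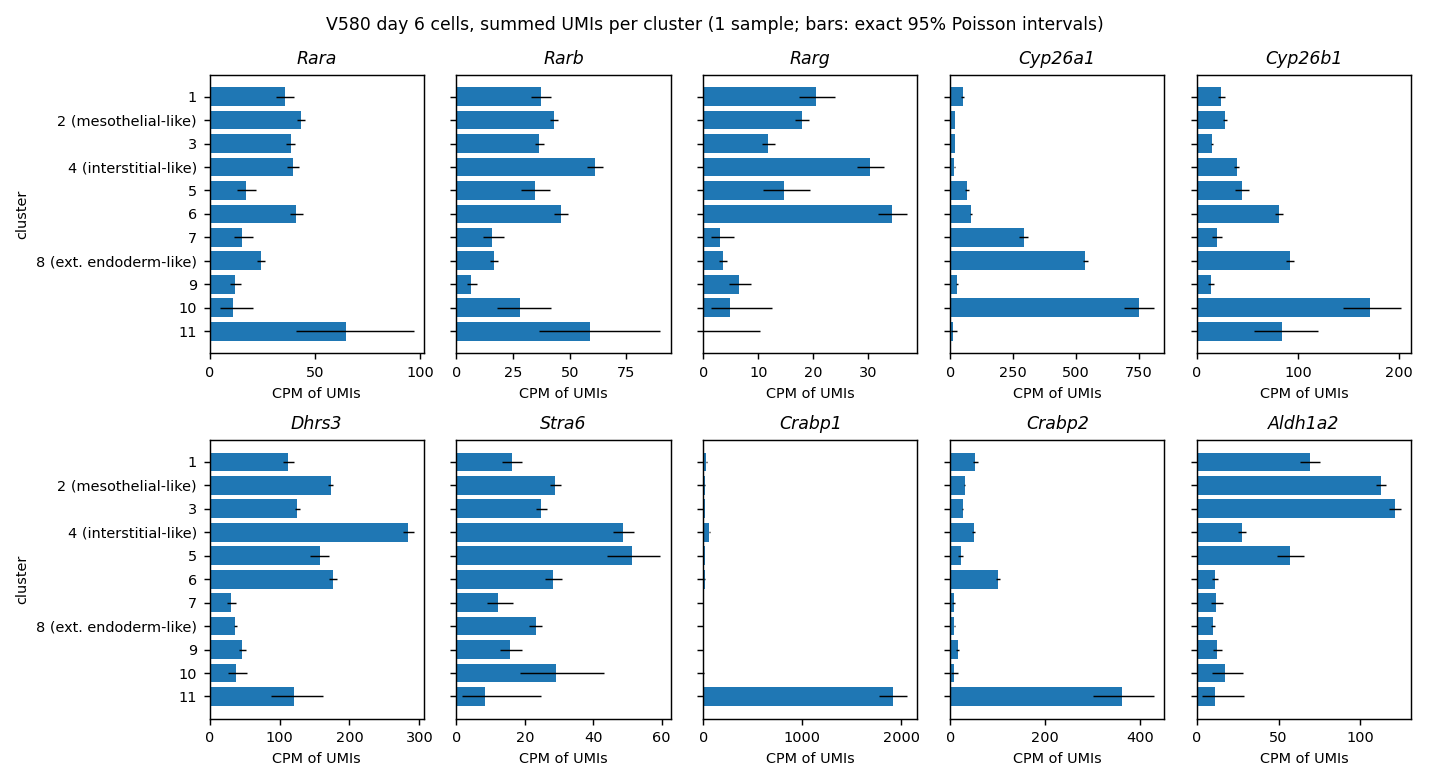
CPM of UMIs of the 10 genes in the 11 clusters of the V580_D6 sample (bars from 0, with exact Poisson 95% intervals that cover counting error only). Cyp26a1 is concentrated in clusters 7, 8 and 10, Aldh1a2 in clusters 2 and 3, Dhrs3 in cluster 4, and Crabp1 in cluster 11.

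Some other retinoid genes differed widely between clusters, while others differed less. Rxrb was at 29.3 CPM in cluster 8 and 43.6 in the mesothelial-like cluster, and Ncor1 was at 172 and 227. Rbp4, the plasma retinol carrier that STRA6 receives, was at 707 CPM in cluster 8, 500.5 in cluster 7 and 16.2 in the mesothelial-like cluster. Meis2 was at 84.3 CPM in cluster 8 and 661 in the mesothelial-like cluster. Stra8 was at 135.5 in cluster 6 and at 19.6 or less elsewhere.

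Across the 31 FPKM libraries, the genes whose log2(FPKM + 1) pattern was most like that of each member were listed among 11921 genes, as a description. The libraries share groups, so no p is given. For Rarb these were Meis2 (Pearson r = 0.98), Abca3 (0.97) and Rgma (0.97), and for Cyp26a1 they were Hoxb4 (0.92), Elf3 (0.90) and Ppl (0.90). For Cyp26b1 they were Hmgn3, Robo1 and Parm1 (0.98 each). Dhrs3 and Stra6 were in each other's lists (0.98), with Smad6 next to Dhrs3 (0.98) and Srgn next to Stra6 (0.98). For Aldh1a2 they were Btg1, Pygo1 and Pogk (0.99 each), for Rarg Pdha1 and S100a6 (0.98 each), for Crabp2 P2rx3 (0.94), and for Rara Irf2bpl (0.90).

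In the annotation of the files' build (mm10) Rara lies at chr11:98927818-98974942, Rarb at chr14:16430839-16819156, Rarg at chr15:102234938-102257517, Cyp26a1 at chr19:37697798-37701536, and Cyp26b1 at chr6:84571414-84593908. Dhrs3 lies at chr4:144892827-144928209, Stra6 at chr9:58063788-58153996, Crabp1 at chr9:54764748-54773110, Crabp2 at chr3:87948666-87953376, and Aldh1a2 at chr9:71215789-71296243. Exonic reads were counted for each. Exons of Rarb overlap Gm48162 and Top2b on the other strand, and the library kit named in the labels does not mark strand, so reads of Rarb and these genes cannot be told apart there. No other member shares exonic bases with another gene.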

How the data were processed

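The 10 genes and all gene lists were chosen with earlier results of these data known. The authors deposited raw counts per gene for the GSC stages (HISAT2 and featureCounts, mm10, per the methods), FPKM values for treatments, days and E12.5_GC (the tool is not given in the sources used here), and UMI counts of 1 10x Genomics sample (Cell Ranger). The methods describe the single-cell experiment as repeated, but 1 sample was analysed here. Columns of AM580 libraries are named X580 and were matched to their labels by exclusion. A further table with 10 columns that match no sample was not used.

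Counts were tested with edgeR 4.0.16 (quasi-likelihood, TMM, 1 model of 8 libraries, adjusted p below 0.05). FPKM values were tested with limma 3.58.1 (trend) on log2(FPKM + 1), which understates changes of low genes, over genes at 1 FPKM or more in 3 libraries (days, 15 libraries) or 2 libraries (treatments, 16 libraries, and both together), calling an adjusted p below 0.05 with at least 2-fold. Adjustment was by Benjamini-Hochberg over all genes tested. FPKM steps gave whole fragments within 0.02 for 13552 of 13682 genes (at least 99.98% of values in each library), and edgeR was run on these as an alternative. DESeq2 1.42.0 was an alternative for counts. Named examples of a list were those with the largest called differences in each comparison. A few genes that these rules select are not reported here. On simulated data edgeR recovered 92% of 200 changed genes with 8 false calls among 15905 genes (E13.5 against E12.5).

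Replicate numbers were taken to pair libraries where deviations from the group means correlated above 0.1 in each of 3 same-numbered pairs. This held for V580_D4 with E12.5_GC (0.1152 to 0.3445), where a replicate block changed no call of a member, and for no other groups with 3 libraries. Nothing in the labels pairs these cultures with the gonads. Groups of 2 libraries cannot meet this rule, and among the treatments their correlations were -0.42 to 0.21. Libraries of a stage differed by more than sampling noise (chi-square per degree of freedom 5.80 to 35.7). The study's limits on cells (200 genes or more, 40% mitochondrial UMIs or less) were kept, and the cells were clustered with scanpy 1.11.5 (2000 variable genes, 20 components, Leiden, resolution 0.5).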

Additional observations from a re-analysis of the deposited data

Results flagged for a closer look

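The difference between AM580 and Con cultures was tested for change between 24 h and 48 h with an interaction term in limma on log2(FPKM + 1), n = 2 per group. It was called for 4 of 8 genes (1.9% of all genes). The AM580 difference was larger at 48 h by 3.61 for Cyp26a1 (adjusted p = 6.4e-11), by 1.44 for Dhrs3 (adjusted p = 1.6e-07), by 1.39 for Crabp2 (adjusted p = 2.2e-06) and by 1.17 for Stra6 (adjusted p = 2.2e-06). The Con level of Cyp26a1 was itself lower at 48 h, and that of Crabp2 higher. For Stra6 the value depends on the scale. With 0.1 added in place of 1 it was 0.76, and by edgeR on recovered fragments, where Con at 24 h holds few, it was 0.06 ± 0.51 (adjusted p = 0.94). For Rarb, at 0.77 on the log2(FPKM + 1) scale and 0.41 ± 1.03 in fragments, no call was made.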

How the results depend on the processing

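Of 341 member counts and single-cell levels under the alternatives, 300 stayed within 1.5 times or the counting interval. Without the fold threshold the count of members called was 6 with AM580 at 24 h (2 with it), 8 with AM580 at 48 h (5), 7 with V580 at 24 h (2), 8 with V580 at 48 h (4), 2 and 3 with Vc at 24 h and 48 h (0), 1 and 4 for V580 against AM580 (0), 3 for the interaction at 48 h (0), 6 for Con at 48 h against 24 h (2) and 7 for the AM580 effect over time (4). Across days it was 7 for day 6 against day 4 (3), 6 for day 8 against day 6 (2), 4 for day 10 against day 8 (0) and 8 for day 6 against E12.5_GC (5). Many other genes also differ when size is ignored. At an unadjusted p under 0.05 by limma, 2858 of 10644 genes differed with AM580 at 24 h and 6533 at 48 h. With V580 these were 4199 and 6532, and for day 6 against E12.5_GC 8048 of 11512. The counts without the fold threshold are thus not read as particular to the members. Adding 0.1 in place of 1 gave 4 at 24 h with AM580 and with V580, and 1 for the interaction at 48 h. By edgeR on recovered fragments, chosen after seeing the data, these were 5, 5 and 1, with 1 for V580 against AM580 at 48 h. With a 2-fold threshold E16.5 against E13.5 gave 3 (5). Leaving out 1 library gave 2 to 4 at E16.5 against E12.5, 3 to 5 at E16.5 against E13.5, and 1 to 2 for day 8 against day 6. The cause was not tested, apart from what each setting adds or removes.

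The difference for Cyp26a1 between P6w and E16.5 was -0.27 to 3.47 with 1 library left out, negative without P6w replicate 2. With a term for the lane, Cyp26a1 at P6w against E12.5 was 5.13 (adjusted p = 0.052). With the replicate number as a block the count went from 6 to 5 at P6w against E16.5, where Cyp26a1 lost its call (2.00, adjusted p = 0.065), and from 4 to 5 at E16.5 against E12.5, where it gained one (3.41, adjusted p = 0.045). The block changed no call of a member in the other comparisons. Correlations of same-numbered deviations were -0.43 to 0.39. They passed 0.1 in every pair of 3 for V580_D4 with E12.5_GC, and for no other groups with 3 libraries.

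In single cells thinned to 2000 UMIs the levels over all cells were 18.6 CPM for Rarg (17.1 unthinned), 96.3 for Cyp26a1 (113), 39.95 for Cyp26b1 (42.1), 152 for Dhrs3 (146), 29.4 for Stra6 (28.6), 34.0 for Crabp2 (37.3) and 70.1 for Aldh1a2 (67.7). At resolution 1.0 (18 clusters) the highest cluster was at 65.0 for Rarb (61.0), 37.1 for Rarg (34.3), 323 for Dhrs3 (284) and 148 for Aldh1a2 (121). With 2 or 3 libraries per group, low members (Rarb, Stra6 and Cyp26b1 in ESCs, Cyp26a1 in ESCs without AM580 at 48 h and in the embryo) rest on few fragments.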
